A study of Mus musculus with 6 samples.

Results

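The Hox cluster genes were followed in mouse esophagus through every probe whose gene name in the scanner files is Hox with a cluster letter from a to d and a number, other than Hoxc13. The rule took 49 of the array's 41174 probes, for 37 of its 28146 gene names. Cluster A held 14 probes for 11 genes, cluster B 15 for 10, cluster C 8 for 7 and cluster D 12 for 9. Each of 12 genes had 2 probes, and the single Hoxb1 probe was printed as 10 spots.

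Hox genes encode homeodomain transcription factors, which bind DNA through a recognition helix and often do so together with Pbx, Meis and Pknox cofactors. They stand in 4 clusters on separate chromosomes, and members at the same relative place in different clusters are called paralogs and share a group number. Their order along a cluster matches the order of their expression along the body axis, with low-numbered groups used in the hindbrain, pharynx and foregut and high-numbered groups in the tail, the limb tips and the urogenital tract. Adult tissues keep part of this positional pattern, and connective tissue cells are known for doing so.

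The study compared adult C57BL/6J mice labelled wild type (WT) with K5Cre;Pax9 loxP/loxP mice, 3 arrays each. In the second group a Cre recombinase driven by the keratin 5 promoter, which is active in basal cells of stratified epithelia, acts on a floxed Pax9 allele. Pax9 is a paired-box transcription factor of the pharynx and esophagus. All 6 arrays carried total RNA of esophageal tissue in Cy5 and Universal Mouse Reference RNA, pooled from 11 mouse cell lines, in Cy3, with no dye swap. The labels call the arrays of a group biological replicates and say nothing further of the animals behind them, so a p-value covers no more than the spread among these samples. The labels do not state which exons are floxed, or whether the wild type mice carried a floxed allele or the Cre.

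Values are log2 ratios of esophagus over reference after loess, and differences are arrays labelled knockout minus arrays labelled wild type. As a check of the labels, the Pax9 probe read 6.28, 6.13 and 5.70 on the wild type arrays and 6.81, 6.78 and 6.72 on the others. The difference of 0.73 (SE 0.18) missed the threshold of 0.05 in limma (adjusted p = 0.071). The target gene was thus not reduced, and since the place of its probe relative to the deletion is not known, this is no check of the deletion either. For this reason the groups carry their label names, on which every direction given here depends. All wild type arrays lay on slide 1 and all knockout arrays on slide 2, so slide and group cannot be told apart. The common reference measured in Cy3 alone differed between the slides at 51.5% of the 30501 tested probes. The epithelial marker list (10 of 10 tested) had no member past the threshold, with a mean log2 ratio of 5.03 to 5.47 on the wild type arrays and 5.15 to 5.54 on the knockout arrays. The RNA was not of epithelium alone: all 11 skeletal muscle markers were tested, and their summed Cy5 signal spanned 70154 to 717182 on wild type and 258663 to 1609852 on knockout arrays. In such tissue RNA, fewer cells of a type and less RNA per cell cannot be told apart.

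A probe reads only the 60 bases it was made from, so the probes on which the results turn are shown with their positions on mouse build mm9, as the files give them. In 12 of the 49 probes a reading frame without a stop held a Hox protein motif, which places those probes in coding sequence. For the others, exon and untranslated region were not assigned, since no transcript models of that build were used here. The following sequences, copied from the scanner files, are the pair for Hoxd9, of which the first lies in the homeodomain (capitals mark the bases that code for a stretch of helix 2) and the second, shown by its first 30 bases, lies 343 bases farther along the plus strand.
Hoxd9 A_51_P430728, chr2:74537333-74537392: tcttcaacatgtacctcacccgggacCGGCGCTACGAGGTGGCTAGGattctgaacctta
Hoxd9 A_52_P385584, chr2:74537676-74537735: ggacactgtatttgctcgcatatgtattgg

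The cluster A probes shown next come from the minus strand of chromosome 6. Capitals mark the codons of homeodomain helix 1 in the Hoxa4 probe and of the hexapeptide core, the short motif through which Hox proteins contact Pbx, in the Hoxa6 probe.
Hoxa4 A_52_P638382, chr6:52140595-52140654: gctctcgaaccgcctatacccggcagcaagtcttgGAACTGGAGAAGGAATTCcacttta
Hoxa6 A_51_P360586, chr6:52158194-52158253: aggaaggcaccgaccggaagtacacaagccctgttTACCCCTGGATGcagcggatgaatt

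Esophagus RNA gave signal for most low and middle Hox groups and for few of the high ones. Cy5 was well above background, as the scanner software calls it, on all 6 arrays for 27 of the 49 probes, on some arrays for 14 and on no array for 8. By array, 30, 32 and 36 Hox probes were detected on the wild type arrays and 30, 39 and 34 on the knockout arrays, so these counts overlapped. Over all probes the share detected in Cy5 was 67.3% to 77.3% on wild type and 71.8% to 76.1% on knockout arrays. The reference RNA was above background on all 6 arrays for 41 Hox probes and on none for 3 (Hoxb1, Hoxd1 and Hoxd11). For those 3, also at background in Cy5, nothing can be said of the esophagus beyond a signal under the detection limit.

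**Figure D1:**
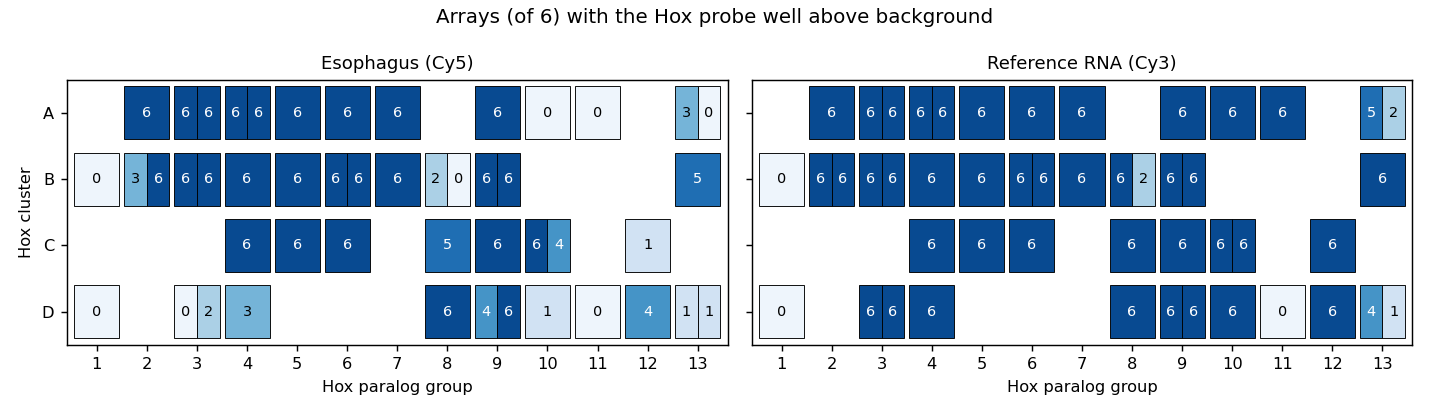
Number of arrays (of 6) on which each Hox probe was well above background in esophagus RNA (Cy5, left) and in the reference RNA (Cy3, right), by cluster (rows) and paralog group (columns), for the genes reported singly. A divided square holds 2 probes of a gene, and darker squares mean more arrays. Groups 10 to 13 were detected on all 6 arrays by 1 of 13 probes in Cy5 and by 8 of 13 in Cy3.

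Groups 1 to 4 had 11 of 17 probes above background on all 6 arrays in Cy5, and 15 of 17 in Cy3. For 8 of those 11 the mean log2 ratio over the 6 arrays was above 0, with a median of 0.46 over the 11. Loess sets the typical ratio of each array near 0, so a ratio above 0 is relative to the array's other probes. It does not mean more signal in Cy5 than in Cy3. Hoxc4, for example, had ratios of 0.22 to 0.70 with Cy5 signals of 192 to 570 and Cy3 signals of 459 to 676. Cluster D had no probe above background on all 6 arrays in Cy5 in this range. Hoxd3, a gene of the neck vertebrae, was above background on no array with 1 probe and on 2 with the other, and Hoxd4 was on 3, although all 3 probes were above background on every array in Cy3. In cluster B, the Hoxb2 probe A_51_P257789 was likewise above background on 3 arrays in Cy5 and on 6 in Cy3, and Hoxb1 was on none in either channel.

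Groups 5 to 9 had 15 of 19 probes above background on all 6 arrays in Cy5, and 18 of 19 in Cy3. Here 4 of the 15 ratios were above 0 and their median was -1.39, so most of these probes lay below the typical ratio of the arrays. Hoxc5, a cluster C gene of the neck and upper chest level, was the one with the highest ratio to the pool of all 49 probes, reading 2.14, 2.20 and 2.93 on the wild type arrays and 2.48, 2.12 and 2.50 on the knockout arrays. Hoxc9, a gene of the trunk that separates thoracic from limb-level motor neurons, had the lowest, at -3.82, -4.25 and -5.05 against -4.55, -4.71 and -4.73. These ratios depend on what the pool expresses and do not order the genes by their level in esophagus.

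Groups 10 to 13 had 1 of 13 probes above background on all 6 arrays in Cy5, the first Hoxc10 probe, and 8 of 13 in Cy3. Hoxa10 and Hoxa11, which pattern the uterus and the limb, were the clearest case. Hoxa11 had background-subtracted Cy5 signals of 11.7, 7.66 and 6.56 on wild type and 13.8, 6.54 and 8.81 on knockout arrays, called background on all 6, while its Cy3 signals lay between 1743 and 2013. Hoxa10 behaved alike, with Cy5 signals of -0.19 to 7.01 and Cy3 signals of 831 to 1082. The probes thus worked in the reference channel on the same spots. Hoxb13, a gene of the tail end and the prostate, was above background on 5 arrays, with log2 ratios of -1.12 ± 0.32 on wild type and -1.28 ± 0.14 on knockout arrays (SD, n = 3 each).

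For the comparison of the groups, 32 probes of 26 genes were tested, each above background in Cy5 on all 3 arrays of at least 1 group. The other 17 probes were not tested. Of these, 8 were above background on no array: Hoxa10, Hoxa11, Hoxb1, Hoxd1, Hoxd11 and the second Hoxa13, second Hoxb8 and first Hoxd3 probes. The remaining 9 were above background on some array, with no group complete: Hoxc12, Hoxd4, Hoxd10, both Hoxd13 probes and 1 probe each of Hoxb2, Hoxb8, Hoxc10 and Hoxd3. By limma with Benjamini-Hochberg adjustment over all 30501 tested probes, 1 Hox probe was higher on the arrays labelled knockout and 0 were lower. That is 3.13% of the 32, where 4.18% of all tested probes passed (2.39% higher and 1.78% lower), so the Hox share lay near that background. At an unadjusted p under 0.05 there were 12 Hox probes, 10 higher and 2 lower, against 23.4% of all tested probes. The median Hox difference was 0.10, beside -0.003 over all tested probes, with 17 differences above 0 and 15 below.

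**Figure D2:**
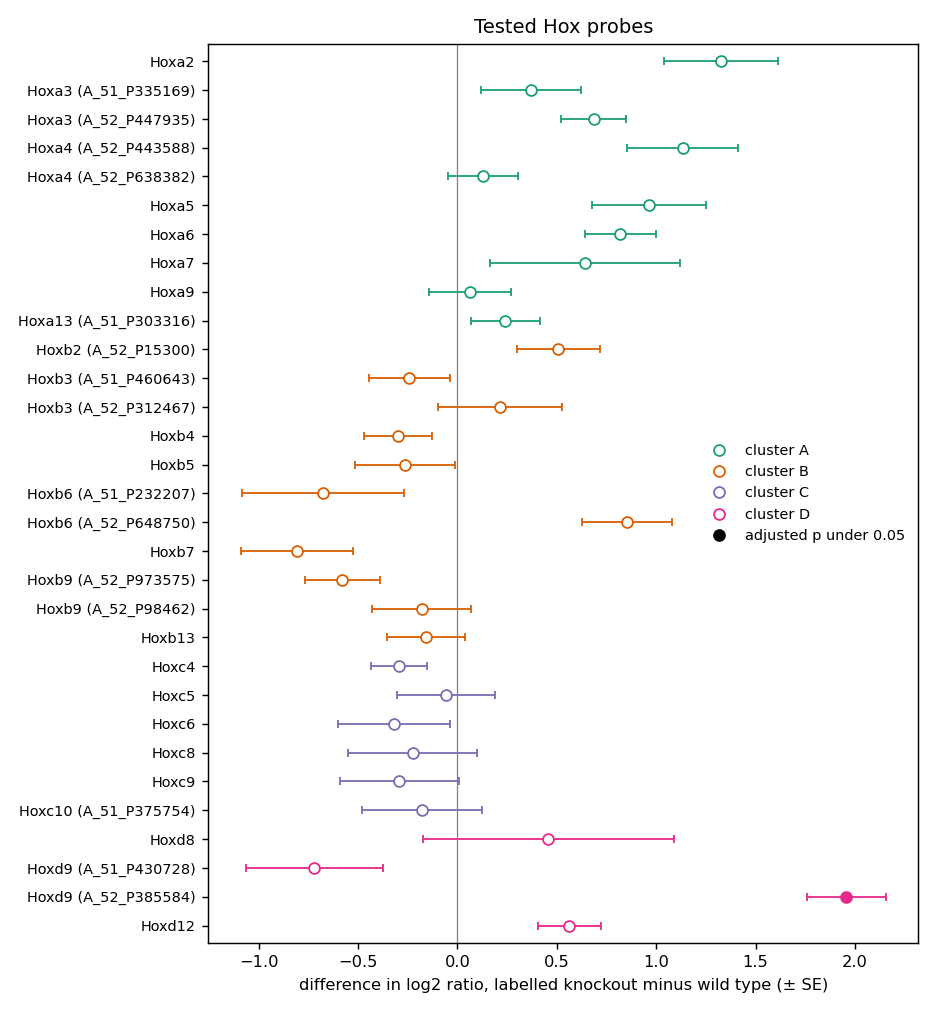
Difference in log2 ratio (x axis), arrays labelled knockout minus arrays labelled wild type, for the tested Hox probes reported singly, ordered by cluster and paralog group. Points are fitted differences and bars the limma SE, and the filled point is the one with adjusted p under 0.05. Every cluster A difference shown is above 0, and all 6 of cluster C are below 0.

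Hoxd9 carried the call. It is a posterior gene of the lower trunk and the limb, and its probe A_52_P385584 read -0.22, -0.58 and -0.71 on the wild type arrays against 1.70, 1.19 and 1.47 on the knockout arrays. All wild type log2 ratios were below 0 and all knockout log2 ratios above 0. Its group means were -0.50 ± 0.25 and 1.46 ± 0.25 (SD, n = 3 each). The rise was 1.96 (SE 0.20, adjusted p = 0.0088), or 3.88-fold. In Cy5 the signal after background subtraction was 49.3, 43.5 and 98.9 on the wild type arrays and 603, 464 and 572 on the others. Cy3 signals of the same spots stayed between 350 and 398, and the reference alone differed by 0.14 between the slides. With replicate 3 labelled knockout left out the difference was 1.95 and no longer passed (adjusted p = 0.0599).

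The other Hoxd9 probe, A_51_P430728 in the homeodomain, went the other way without passing. It read 0.70, 0.54 and -0.37 on wild type and -0.67, 0.09 and -0.71 on knockout arrays, and the groups overlapped. Its difference was -0.72 (SE 0.34, adjusted p = 0.26). In Cy5 it was above background on all 3 wild type arrays and on 1 knockout array, so its knockout values lie near the detection limit. The pair is therefore no measure of one Hoxd9 total: averaged over both probes, the gene's difference was 0.62 and did not pass (adjusted p = 0.14 over genes). Which transcripts each probe reads was not tested.

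**Figure D3:**
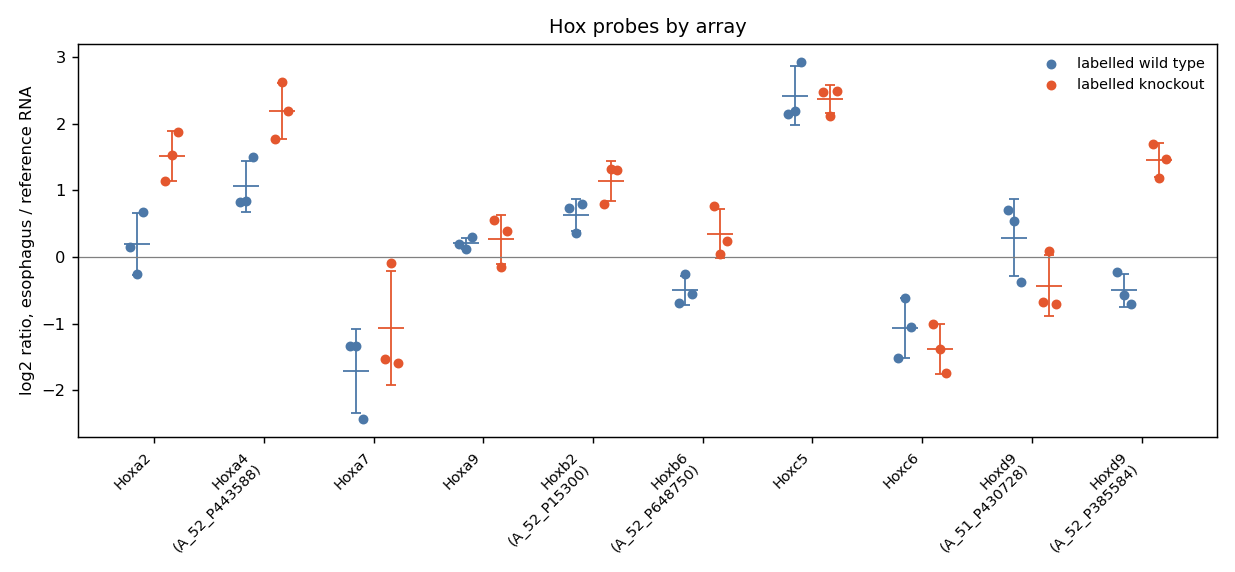
Log2 ratio of esophagus over reference RNA (y axis) on each array for the 9 Hox probes that the naming rule takes and the second Hoxd9 probe. Points are arrays, long dashes group means and bars the SD over 3 arrays, in blue for wild type and red for knockout. The groups do not overlap for Hoxa2, the Hoxa4 and Hoxb6 probes shown and Hoxd9 A_52_P385584.

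Beyond Hoxd9, cluster A was the cluster in which every tested difference was above 0: 11 of 11, with a median of 0.69 and a range of 0.06 to 1.32. None of these probes passed the threshold in the fit that gave these values. With other settings up to 6 of them did, 4 with the replicate block and 6 with array weights. Those settings also called more of all 30501 tested probes: 2254 (7.39%) with the block and 4906 with array weights, beside 1274 (4.18%). Under the 16 other settings run on the tested probes the median of cluster A stayed between 0.43 and 0.85, and at most 1 of its differences was below 0. Hoxa13 A_51_P303316 counts among the 11 only through its knockout arrays, since it was above background on no wild type array. With detection on all 6 arrays required, 10 of 10 cluster A differences were above 0. The reference alone gave 6 of the 11 above 0, with a median of 0.02. These probes neighbour each other in 1 cluster and were measured on the same arrays, so they are not independent of each other. Among the marker lists, skeletal muscle had a median difference of 1.00, with none of its 11 members past the threshold, and mean log2 ratios of 2.18 to 4.36 on wild type and 3.44 to 4.82 on knockout arrays. Fibroblast markers, 11 of 11 tested, had mean ratios of -1.09 to 0.31 against -1.27 to 0.21 and a median difference of 0.17. The 6 endothelial markers had 1.99 to 2.86 against 2.59 to 2.96 and the 8 smooth muscle markers 1.56 to 2.77 against 2.24 to 2.82, with median differences of 0.44 and 0.21. All of these ranges overlapped between the groups, and the part of these cell types in the Hox values was not tested.

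Hoxa2, the selector gene of the second pharyngeal arch, had the largest difference in cluster A. It read 0.16, -0.25 and 0.68 on the wild type arrays and 1.14, 1.53 and 1.89 on the knockout arrays, and the groups did not overlap. The difference of 1.32 (SE 0.29) missed the threshold (adjusted p = 0.053) and passed with the replicate block (adjusted p = 0.018). Its probe is at chr6:52112595-52112654.

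Hoxa4, which acts at the neck level and in lung development, was seen by 2 probes that differed in size. The probe A_52_P443588, at chr6:52139796-52139855, read 0.83, 0.85 and 1.51 on wild type and 1.78, 2.62 and 2.19 on knockout arrays, with no overlap. Its difference of 1.13 (SE 0.28) missed the threshold (adjusted p = 0.068) and passed with the block (adjusted p = 0.040). The coding probe A_52_P638382, 799 bases away, differed by 0.13 (SE 0.18, adjusted p = 0.70), and its groups overlapped.

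Hoxa6, whose probe spans the hexapeptide, read -0.12, -0.22 and -0.35 against 0.78, 0.28 and 0.70, a difference of 0.82 (SE 0.18, adjusted p = 0.053) with no overlap. With the block it passed (adjusted p = 0.044), and with median centring the difference was 0.12 (adjusted p = 0.81). Hoxa6 and Hoxa2 have 1 probe each, so averaging the probes of each gene left their differences unchanged. In that fit over genes both passed (adjusted p = 0.041 for Hoxa6 and 0.044 for Hoxa2). This is no second measurement of them, and the share of all genes passing there was not counted.

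Hoxa3, needed for the thymus and parathyroid glands, had differences of 0.37 and 0.69 with its 2 probes, and the groups were apart with the second, A_52_P447935 (adjusted p = 0.065). Hoxa5, known for its part in lung and airway development, read -0.56, -0.44 and -0.66 on wild type and -0.12, 1.03 and 0.32 on knockout arrays, again without overlap (difference 0.96, SE 0.29, adjusted p = 0.10). Without replicate 2 labelled knockout, its highest array, the difference was 0.65. Hoxa7 differed by 0.64 (SE 0.48, adjusted p = 0.46), resting on that same array: it read -0.08 there and -1.53 and -1.59 on the other knockout arrays, against -1.34, -1.34 and -2.44 on wild type arrays, and the difference without it was 0.15.

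At the far end of the cluster, Hoxa9, known from blood cell precursors and leukemia, read 0.20, 0.12 and 0.29 against 0.56, -0.15 and 0.39. Its difference of 0.06 (SE 0.21, adjusted p = 0.88) was below its error and turned to -0.0089 with the deposited log ratio. Hoxa13, a gene of the limb tips and the hindgut, was not well above background on any wild type array with probe A_51_P303316 and was on all 3 knockout arrays. In Cy5 alone its signal was 1.39-fold higher there (difference 0.47, adjusted p = 0.057 in limma), and the reference alone differed by 0.23. The fitted difference of the ratio was 0.24 (adjusted p = 0.44), and its sign turned with median centring (-0.21). Raising wild type signals to the lowest signal called well above background left the 1.39-fold unchanged. It is therefore an estimate and no lower bound, and it is open to dye bias.

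The replicate block moved the count of Hox calls, so its values stand beside the others. With the replicate number as a block, 5 Hox probes passed, all higher on the knockout arrays, among them Hoxd9 A_52_P385584 (adjusted p = 0.0037), Hoxa2, Hoxa4 A_52_P443588 and Hoxa6. Of all tested probes 7.39% passed in that fit, and 4.35% were higher. The share of Hox probes higher was thus 5 of 32, and 4 of those 5 lie in cluster A.

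Cluster B leaned the other way, with 3 differences above 0 and 8 below, a median of -0.24, and no probe past the threshold with or without the block. Hoxb2, a paralog of Hoxa2, read 0.74, 0.36 and 0.80 on wild type and 0.80, 1.31 and 1.31 on knockout arrays with probe A_52_P15300. The difference was 0.51 (SE 0.21, adjusted p = 0.20), with 1 knockout array inside the wild type range. The other Hoxb2 probe maps to the minus strand, opposite to the Hoxb genes, and was not tested. Hoxb4, known for expanding blood stem cells, differed by -0.30 (SE 0.17, adjusted p = 0.34), and Hoxb5 by -0.26 (SE 0.25, adjusted p = 0.57).

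Among tested probes, Hoxb7 and Hoxb9 were the cluster B genes whose groups were apart with lower knockout values. Hoxb7, a trunk gene, read -2.28, -2.48 and -3.37 on wild type and -3.46, -3.57 and -3.53 on knockout arrays. The difference was -0.81 (SE 0.28, adjusted p = 0.15), and it passed when wild type replicate 3 was left out (adjusted p = 0.028). Hoxb9, which marks the thoracic level, differed by -0.58 (SE 0.19, adjusted p = 0.13) with probe A_52_P973575, while its second probe differed by -0.18 and overlapped.

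Hoxb6 and Hoxb3 gave opposite signs with their 2 probes. For Hoxb6, a gene of the trunk and forelimb field, probe A_52_P648750 read -0.69, -0.26 and -0.56 on wild type and 0.77, 0.05 and 0.24 on knockout arrays (difference 0.85, SE 0.23, adjusted p = 0.080), with no overlap. Probe A_51_P232207, 2282 bases away, differed by -0.68 (SE 0.41, adjusted p = 0.36) with overlapping groups. The Hoxb3 differences were -0.24 and 0.22, each within its spread (adjusted p = 0.51 and 0.72).

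**Figure D4:**
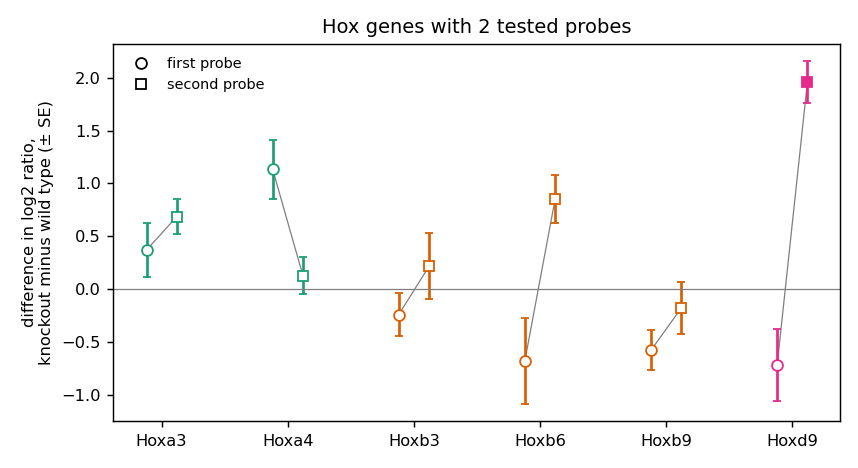
Difference in log2 ratio (y axis, knockout minus wild type, bars are the limma SE) for the 6 Hox genes with 2 tested probes, the pair of each gene joined by a line. The 2 probes have the same sign for Hoxa3, Hoxa4 and Hoxb9 and opposite signs for Hoxb3, Hoxb6 and Hoxd9, and the filled point (Hoxd9) has adjusted p under 0.05.

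All 6 tested cluster C differences lay below 0, between -0.32 and -0.06 with a median of -0.26, and none passed. Hoxc4 was the only one with groups apart, at 0.57, 0.70 and 0.59 on wild type and 0.47, 0.22 and 0.28 on knockout arrays (difference -0.29, SE 0.14, adjusted p = 0.27). Hoxc6, a gene of the thoracic level and the mammary gland, read -1.52, -0.61 and -1.05 against -1.01, -1.39 and -1.75, which overlap (difference -0.32, SE 0.28, adjusted p = 0.53). Hoxc8 and Hoxc10 differed by -0.23 and -0.18 and Hoxc9 by -0.29, each with overlapping groups. Hoxc5 differed by -0.06 (SE 0.25, adjusted p = 0.91), with the sign turned to 0.73 in Cy5 alone. The median of cluster C stayed below 0 under the 16 other settings, from -0.42 to -0.03, with up to 2 differences above 0.

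In cluster D, besides Hoxd9, Hoxd12 and Hoxd8 were tested. Hoxd12, a gene of the digits and the tail end, read 0.15, -0.05 and 0.16 on wild type and 0.72, 0.44 and 0.78 on knockout arrays, without overlap (difference 0.56, SE 0.16, adjusted p = 0.091). It was above background in Cy5 on 1 wild type array, and the sign turned to -0.19 with median centring. Hoxd8 read -2.18, -1.47 and -2.43 on wild type and -2.38, -0.01 and -2.30 on knockout arrays, so that 1 array carried its difference of 0.46 (SE 0.63, adjusted p = 0.70). Without replicate 2 labelled knockout it was -0.32.

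That array stood apart in other genes as well. The neural and glial marker list (6 of 8 genes tested, Ret above background on no array) had a mean log2 ratio of 2.12 on replicate 2 labelled knockout, against 0.31 and 0.39 on the other knockout arrays and 0.27 to 0.60 on the wild type arrays. Sox10, a transcription factor of neural crest and glia, read 2.35 there and 0.39 to 0.81 elsewhere. The summed Cy5 signal of the list was 4364 to 5505 on wild type and 3062 to 10223 on knockout arrays. Among the knockout arrays, replicate 2 also had the highest mean ratio of the skeletal muscle list (4.82 against 3.44 and 3.45). Its fibroblast mean was the lowest of the knockout arrays (-1.27 against 0.07 and 0.21). Wild type replicate 2 had the same order among the wild type arrays, at 4.36 for skeletal muscle and -1.09 for fibroblast. The part of these lists in the Hoxd8, Hoxa7 and Hoxa5 values was not tested.

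In all, the groups did not overlap in 9 Hox probes that were higher on the knockout arrays (28.1% of the 32, beside 15.6% of all tested probes) and in 3 that were lower (9.38%, beside 14.9%). Among the 9 are Hoxa2, 1 probe each of Hoxa3, Hoxa4, Hoxb6 and Hoxd9, Hoxa5, Hoxa6 and Hoxd12, and 6 of the 9 lie in cluster A. Hoxd12 counts among the 9 only through its knockout arrays, since it was above background on 1 wild type array. The 3 are Hoxb7, Hoxb9 A_52_P973575 and Hoxc4. Since slide and group coincide, a slide difference enters these counts in the members as in the background.

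Read channel by channel, the esophagus RNA in Cy5 alone gave 11 Hox calls, 8 higher and 3 lower, where 29.2% of all tested probes were called (14.1% higher and 15.1% lower). The 8 were Hoxa2, Hoxa6, Hoxb2 A_52_P15300, Hoxd9 A_52_P385584, Hoxd12 and 1 probe each of Hoxa3, Hoxa4 and Hoxb6. Here too Hoxd12 was tested only through its knockout arrays. The 3 lower were Hoxb3 A_51_P460643, Hoxb4 and Hoxb7. The reference alone, which is the same RNA on every array, was called at 18 of the 32 Hox probes, beside 51.5% of all tested probes. Of these Hox calls 11 were higher and 7 lower, and the Hox reference differences ran from -0.56 to 0.78. Hoxa3 A_52_P447935, Hoxa6, Hoxb6 A_52_P648750, Hoxc5 and Hoxd12 had reference differences of 0.67 to 0.78, so their ratio differences were smaller than their Cy5 differences.

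**Figure D5:**
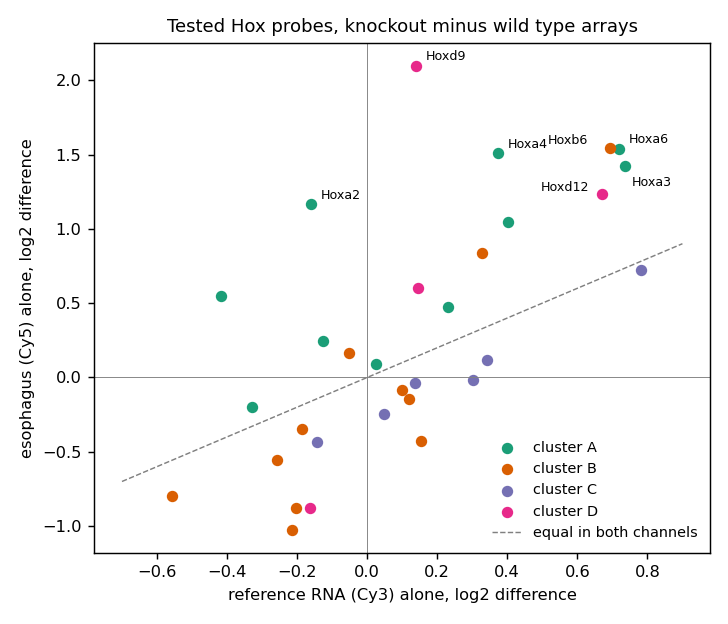
Difference between the arrays labelled knockout and wild type in each channel alone (log2), for the same tested Hox probes: reference RNA (Cy3) on the x axis and esophagus RNA (Cy5) on the y axis, coloured by cluster. The dashed line marks equal differences in both channels, and names mark probes with a Cy5 difference above 1.1. Hoxd9 stands highest, at 2.10 in Cy5 and 0.14 in Cy3.

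Among genes that act with or on the Hox clusters, few passed, and the lists describe the surroundings of the Hox values only. All 9 cofactors of the Pbx, Meis and Pknox families were tested and none passed (median difference -0.19, with 4.18% of all tested probes past the threshold). The 2 with the smallest p were Pknox2, which differed by 0.54 (SE 0.14, adjusted p = 0.081) but by -0.17 in Cy5 alone, and Pbx2, which differed by -0.58 (SE 0.17, adjusted p = 0.097). The 23 Polycomb, Trithorax and related chromatin genes, which hold Hox clusters silent or active, were all tested and none passed (median -0.17). Nearest were Jarid2, a Polycomb repressive complex subunit (-0.85, SE 0.22, adjusted p = 0.078, and 0.043 with the replicate block), and Kmt2b, a histone methyltransferase of the Trithorax group (-0.64, SE 0.18, adjusted p = 0.088).

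Of 16 genes known to act upstream of Hox genes, 11 were tested, 0 passed as higher and 1 as lower (median 0.07). Cdx1, Cdx2 and Cdx4, which activate posterior Hox genes in the embryo, were above background on no array. The one past the threshold was Egr2, a zinc-finger factor that switches on Hoxa2 and Hoxb2 in the hindbrain. It read -1.17, -1.16 and -2.01 on wild type and -3.57, -3.00 and -3.84 on knockout arrays and fell by 2.02 (SE 0.31, adjusted p = 0.023). The call was lost when 1 of 4 arrays was left out, with adjusted p = 0.077 for wild type replicate 2, 0.092 for wild type replicate 1, 0.076 for knockout replicate 1 and 0.11 for knockout replicate 3.

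A further list of 22 genes held homeobox genes of the ParaHox, Evx and foregut or craniofacial kind and, among the 22, the zinc-finger gene Tshz3. Of these, 18 were tested, and Otx2 and Nkx2-1 were above background on no array. In this list 1 gene was higher and 1 lower (median 0.08). Tshz3, a teashirt-family factor of smooth muscle, read -0.70, -0.89 and -0.81 against -0.13, 0.79 and 0.31, and its rise of 1.12 (SE 0.24, adjusted p = 0.0498) lay at the edge of the threshold. The call was lost whichever single array was left out. Dlx3, a homeobox gene of stratified epithelia and hair, read 3.66, 3.43 and 3.87 against 2.72, 2.34 and 2.76 and fell by 1.04 (SE 0.19, adjusted p = 0.033). With the deposited log ratio its difference was -0.37 and did not pass (adjusted p = 0.73), and it missed the threshold whichever single array was left out.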

How the data were processed

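Per the file headers, Agilent Feature Extraction 10.7.3.1 turned the scans into linear intensity values of 45018 spots an array (the submitters' processing notes name version 9.1). The authors also deposited the program's log10 ratio (Cy5 over Cy3), which it background-subtracted and dye-normalized. The deposited series matrix holds log2 values of the opposite sign (correlation of -0.993 to -0.996 with the scanner ratios). How it was centred is not stated, and its column medians lay between -0.02 and 0.01.

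Intensities were corrected with normexp (offset 50) and normalized within arrays by loess, control spots weighing 0. Outlier spots (55 to 164 an array) were set to missing, none was saturated, and spots of a probe were averaged. The two-sided fit used lmFit and eBayes of limma 3.58.1 (R 4.3.3) on the 30501 probes above background in Cy5 on all 3 arrays of a group, with Benjamini-Hochberg adjustment. Errors are the SD over 3 arrays and the moderated SE. The number of arrays limits precision, and an exact permutation test of 3 against 3 cannot go below p = 0.1. Names of other genes came from RefSeq (GRCm38.p6, names only): of 41174 probes, 27020 matched through an accession and 5811 through a name or synonym. List genes are read from their brightest tested probe.

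Same-numbered arrays deviated together from the group means (correlations 0.17, 0.51 and 0.34, other pairs -0.49 to 0.16). For number 1 this was hardly more than wild type replicate 1 had with knockout replicate 3 (0.16). Deviations from the mean of 3 arrays are also tied to each other. That replicate numbers pair the arrays is thus not established, and the replicate block is an alternative only. The labels do not say what a number stands for, and each number also had its own position on both slides.

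All Hox probes are counted, and some items are not reported here by name. Given with all arrays are probes past the threshold, those with groups apart and a difference of at least 1, and up to 6 more of the brightest, at most 2 a cluster. Array values of further Hox probes are shown by a choice made after they were seen. From each pathway list the members past the threshold, or else the 2 with the smallest p, are named. Members and lists were chosen with earlier results of these data known. Alternatives covered background correction, deposited ratios, normalization, Cy5 alone, filters, eBayes prior, array weights, replicate block, averaging over probes and leaving out each array. The script was tested on simulated data.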

Additional observations from a re-analysis of the deposited data

How the results depend on the processing

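The count of 1 Hox probe past the threshold, Hoxd9 A_52_P385584, was the same with the deposited log ratio, the series matrix, median centring and detection on all 6 arrays. It was 4 with a normexp offset of 16 (4 higher), 2 with scaling between arrays (2 higher), 3 with no filter on dim probes (3 higher), 5 with a trended robust prior (5 higher), 5 with the replicate block (5 higher), 3 with the mean over a gene's probes (3 higher), 11 with Cy5 alone (8 higher, 3 lower) and 12 with array weights (9 higher, 3 lower). Leaving out 1 array gave 0 to 3 Hox calls, 0 to 2 higher and 0 to 1 lower, with 0 lacking knockout replicate 3 and 3 lacking wild type replicate 3 (Hoxd9, Hoxa2 and Hoxb7). Over all probes the count of 1274 went from 38 without knockout replicate 3 to 8909 with Cy5 alone. It was 108 and 194 lacking replicate 1 or replicate 2 of the wild type, and 1111 lacking wild type replicate 3. Without knockout replicate 1 it was 322, and without knockout replicate 2 it was 836. Median centring gave 139, the deposited ratio 727, the matrix 714 and detection on all 6 arrays 699. Array weights gave 4906 and the block 2254. A normexp offset of 16 gave 1417, scaling between arrays 1346 and the trended robust prior 1783. With no filter on dim probes it was 1629 of 41174 probes.

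The Hoxd9 A_52_P385584 difference lay between 1.73 and 2.19 and passed in 16 of 17 settings. The median Hox difference stayed between 0.009 and 0.15. Probes above background on all 6 arrays numbered 23 against the 99th percentile of negative controls and 36 by the less strict call, beside 27.

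Signs turned for small differences. Hoxa4 A_52_P638382 was -0.20 and Hoxc8 0.12 with Cy5 alone. Hoxa9 was -0.0089 and Hoxc9 0.014 with the deposited ratio and with the matrix alike. With median centring Hoxa13 was -0.21, Hoxb3 A_51_P460643 0.067 and Hoxd12 -0.19. Hoxc5 was 0.73 with Cy5 alone and 0.15 with array weights, Hoxd8 -0.076 with array weights, and Pknox2 -0.17 with Cy5 alone. Leaving out 1 array moved Hoxa9 between -0.080 and 0.27, Hoxb3 A_52_P312467 between -0.017 and 0.46, Hoxc5 between -0.20 and 0.20, Hoxc8 between -0.51 and 0.043, Hoxc10 between -0.53 and 0.064, and Hoxd8 between -0.32 and 0.87. The cause of these changes was not tested. Arrays of 1 slide a group and signals near background for many Hox probes limit these results.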
